A study of Mus musculus with 8 samples.

Results

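Zinc transporters and metallothioneins were followed across 8 RNA-seq libraries of mouse muscle stem cells. The 10 genes were chosen by symbol as genes of zinc handling. Both these genes and the gene lists below were chosen with earlier results of these data known, so their counts are a description. They comprise the metallothioneins Mt1 and Mt2, the zinc-sensing transcription factor gene Mtf1, the zinc importers Slc39a1, Slc39a6, Slc39a7, Slc39a10 and Slc39a14, and the zinc exporters Slc30a1 and Slc30a5. All 10 were present among the 24328 genes of the deposited table, and all 10 were among the 12515 genes with at least 1 FPKM in at least 2 libraries that entered the tests. FPKM counts sequenced fragments relative to transcript length and library size, so levels of different genes can be set side by side per length.

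Free zinc in the cytosol is kept very low. Importers of the Slc39a family carry zinc into the cytosol from outside the cell or from organelles, exporters of the Slc30a family carry it out, and metallothioneins are small cysteine-rich proteins that bind zinc and copper. The transcription factor encoded by Mtf1 binds zinc and then metal response elements in DNA, and Mt1, Mt2 and Slc30a1 are its classical targets. Metallothionein genes are also known to respond to glucocorticoids, oxidative stress and inflammatory cytokines, and Slc39a14 is known as an importer that interleukin 6 induces in liver.

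The cells were satellite cells, the resident stem cells of skeletal muscle, taken from 2-month-old C57BL/6 mice by a sort for Vcam that left out cells with CD31, CD45 or Sca-1. There were 2 libraries in each of 4 groups. The PFA-perfused group came from Pax7-nGFP mice whose tissue was fixed by perfusion with PFA (paraformaldehyde), and the PBS-perfused group came from Pax7-nGFP mice perfused with PBS (phosphate-buffered saline) and not fixed. The unperfused group came from wild-type mice that received no perfusion, and the injury-activated group came from wild-type mice, also without perfusion, 2.5 days after a muscle injury whose agent the labels do not name. Pax7-nGFP denotes a nuclear green fluorescent reporter under the control of Pax7, the defining transcription factor of satellite cells. RNA of fixed cells was extracted with a kit for fixed material after a first digestion with a doubled amount of collagenase, and RNA of unfixed cells with another kit. Fixation, digestion and RNA kit therefore cannot be told apart between the PFA-perfused group and the others, and genotype and perfusion cannot be told apart between both perfused groups and both unperfused ones. Whether both libraries of a group were made from different mice, or from pooled mice, is not given in the labels, so p-values measure a spread that may be technical.

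Summed FPKM ran from 461454 to 582336 per library, read depth is not known, and log2 levels of the 2 libraries of a group correlated across genes with r between 0.972 and 0.997. All 9 satellite cell markers had a value above 0 in all 8 libraries, but the mean level of Pax7 was 448 FPKM in the PFA-perfused group, 63.9 in the PBS-perfused, 20.1 in the unperfused and 4.50 in the injury-activated group. The markers did not move together. Calcr and Cdh15 fell in the same order of groups, whereas Myf5 and Sdc4 had their highest means in the unperfused group, 1930 and 34234 FPKM. Of the 9 markers, 4 were called higher and 4 lower in unperfused than in PFA-perfused cells, beside 17.4% and 56.3% of all tested genes. The nuclear ribosomal RNA precursor Rn45s took 9.80% and 19.4% of summed FPKM after PFA perfusion, 0.893% and 6.64% after PBS perfusion and at most 0.363% in the others, and its part in the results was not tested. In the unperfused libraries, with summed FPKM of 482339 and 461454, the marker Sdc4 alone stood between 28149.2 and 40318.5 FPKM. The part of Sdc4 in the results was not tested either. FPKM values are shares of a library, and their general level moved between groups. The median log2 difference of all 12515 tested genes was -0.50 between the PBS-perfused and PFA-perfused groups, -0.81 between unperfused and PFA-perfused, -0.36 between unperfused and PBS-perfused, 0.17 between injury-activated and unperfused, -0.11 between injury-activated and PBS-perfused and -0.48 between injury-activated and PFA-perfused. A rescaling of the libraries by a trimmed mean of ratios brought these medians to between -0.06 and 0.11. Differences after that rescaling are given below as scaled differences, for the 10 genes wherever they change a call. The series is described as sequenced on 2 instruments without a map to libraries, so a part of the instrument in the differences was not tested.

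Promoter sequences are shown for Mt1, Mt2 and Slc30a1, the 3 genes known as targets of the factor encoded by Mtf1, because the 2 metallothionein genes carried large differences and the exporter gene did not follow them. Each is the 250 bases before the RefSeq gene start on build GRCm38.p6, written 5′ to 3′ on the strand of the gene, and capitals mark matches to the core of the metal response element. The core was searched as TGCACNC and as TGCGCNC on both strands, and no matches overlapped. The Mt1 stretch is chr8:94178839-94179088 on the plus strand, the Mt2 stretch is chr8:94172368-94172617 on the plus strand, and the Slc30a1 stretch is chr1:191906531-191906780 on the plus strand.
Mt1: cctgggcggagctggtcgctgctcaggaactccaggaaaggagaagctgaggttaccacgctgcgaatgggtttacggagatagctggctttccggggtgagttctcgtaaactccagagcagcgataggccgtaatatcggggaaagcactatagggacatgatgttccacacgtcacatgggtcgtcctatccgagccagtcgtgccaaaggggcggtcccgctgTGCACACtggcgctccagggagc
Mt2: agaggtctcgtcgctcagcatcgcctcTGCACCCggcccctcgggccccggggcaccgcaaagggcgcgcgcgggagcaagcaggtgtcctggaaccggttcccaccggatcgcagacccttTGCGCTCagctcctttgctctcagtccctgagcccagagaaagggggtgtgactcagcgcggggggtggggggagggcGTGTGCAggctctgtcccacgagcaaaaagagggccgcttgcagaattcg
Slc30a1: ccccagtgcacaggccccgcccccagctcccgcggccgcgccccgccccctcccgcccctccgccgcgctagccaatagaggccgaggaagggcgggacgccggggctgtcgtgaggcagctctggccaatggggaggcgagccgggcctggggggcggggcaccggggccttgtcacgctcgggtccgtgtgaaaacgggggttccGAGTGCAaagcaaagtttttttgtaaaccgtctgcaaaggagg

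Counting the first transcribed base as 0, matches were sought in 300 bases, from 250 before the start to 50 after it. Mt1 held 3 matches, all on the strand of the gene: TGCACAC at bases -23 to -17, TGCACTC at bases 2 to 8 and TGCGCTC at bases 20 to 26. Mt2 held 4 matches, with TGCACCC at -223 to -217 and TGCGCTC at -128 to -122 on the strand of the gene, and TGCACAC at -50 to -44 and TGCGCAC at 4 to 10 on the opposite strand. Slc30a1 held 2 matches on the opposite strand, TGCACTC at -43 to -37 and TGCGCTC at 30 to 36. Slc30a5 held 1 match, and none was found in the windows of Mtf1, Slc39a1, Slc39a7 or either start of Slc39a10. Of 32851 such windows in the RefSeq table, 25.7% held at least 1 match, 7.11% at least 2, 1.97% at least 3 and 0.517% at least 4. Windows were found for 8 of the 10 genes, and those of Slc39a6 and Slc39a14 were not analysed here. A match is a stretch of letters and not a measured binding site. Only starts in the RefSeq table were searched, and Mt1 has GENCODE transcripts of 549, 633 and 1085 bases. Whether Mt1 is also transcribed from other starts was not examined. The number and the positions of its matches therefore hold for the RefSeq start alone.

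**Figure D1:**
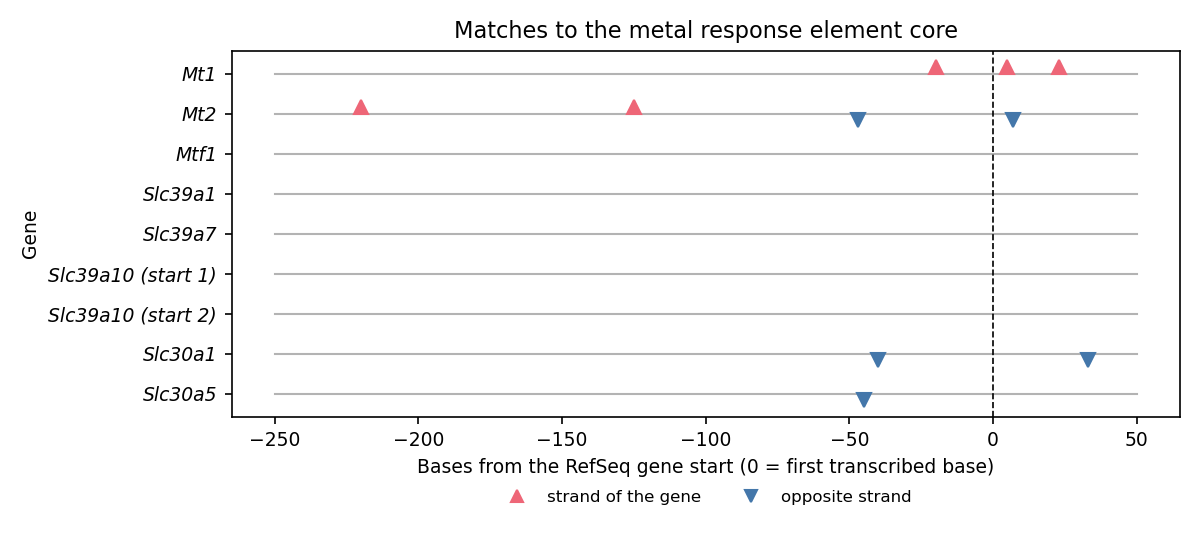
Matches to the metal response element core in the 300-base windows of 8 genes, with the distance from the RefSeq gene start on the x axis (bases) and the genes, with both starts of Slc39a10, on the y axis. Upward triangles are matches on the strand of the gene and downward triangles matches on the opposite strand, with 3 in Mt1, 4 in Mt2, 2 in Slc30a1 and 1 in Slc30a5.

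Mt1 and Mt2 had the highest levels of the 10 genes in 7 of the 8 libraries, and Slc39a1 exceeded both in unperfused replicate 2. Mt1 stood at 169 and 251 FPKM after PFA perfusion, 3377 and 2855 after PBS perfusion, 1338 and 471 without perfusion and 543 and 513 after injury. The PBS-perfused libraries were the highest and the PFA-perfused ones the lowest, with no overlap with any other group, while the 2 unperfused libraries lay far apart and enclosed the injured ones. Group means were 210 ± 58.6 FPKM (SD, n = 2) for PFA-perfused, 3116 ± 369 for PBS-perfused, 904 ± 613 for unperfused and 528 ± 21.0 for injury-activated.

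Mt1 was 14.8-fold higher in PBS-perfused than in PFA-perfused cells by the ratio of means, a log2 difference of 3.91 ± 0.47 (SE) on log2(FPKM + 1) with an adjusted p of 1.4e-04 in limma. It was also higher in unperfused than in PFA-perfused cells, by 1.94 ± 0.47 (limma adjusted p = 0.0042), and lower in unperfused than in PBS-perfused cells, at -1.97 ± 0.47 (limma adjusted p = 0.0072). Those 2 differences became 1.19 without unperfused replicate 1 and -1.21 without unperfused replicate 2, and both stayed under the threshold of 0.05. The size of each thus depended on 1 unperfused library. Between injured and unperfused cells the groups overlapped, and the difference of -0.59 ± 0.47 was not called (limma adjusted p = 0.285). It was called without unperfused replicate 2, at -1.34, and as a scaled difference, at -0.996. Injury-activated cells were lower than PBS-perfused ones, at -2.55 ± 0.47 (limma adjusted p = 9.0e-04) and higher than PFA-perfused ones by 1.35 ± 0.47 (limma adjusted p = 0.0255). The last call was lost without PFA-perfused replicate 1 (1.07), without injury-activated replicate 1 (1.31), without injury-activated replicate 2 (1.39) and with quantile normalization (0.76).

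Mt2, the neighbour of Mt1 on chromosome 8, shared the PBS-perfused maximum but ordered the other groups differently. Its levels were 318 and 428 FPKM after PFA perfusion, 4435 and 4828 after PBS perfusion, 644 and 279 without perfusion and 260.0 and 245 after injury. The PBS-perfused libraries stood at least 6.89-fold above every other library, and the PFA-perfused values lay between the 2 unperfused ones. Mt2 was 12.4-fold higher in PBS-perfused than in PFA-perfused cells, a log2 difference of 3.65 ± 0.40 (limma adjusted p = 1.0e-04), and fell by 3.44 ± 0.40 from PBS-perfused to unperfused cells (limma adjusted p = 1.4e-04) and by 4.19 ± 0.40 from PBS-perfused to injury-activated cells (limma adjusted p = 1.7e-05). Between unperfused and PFA-perfused cells the difference was 0.20 with a 95% interval from -0.70 to 1.10 (limma adjusted p = 0.666), and it was called at 0.80 without unperfused replicate 2 and at 1.40 as a scaled difference. The difference of -0.75 between injured and unperfused cells was not called (limma adjusted p = 0.124), but it was without unperfused replicate 2 (-1.35) and as a scaled difference (-1.15). The difference of injured from PFA-perfused cells, -0.54, was not called (limma adjusted p = 0.242), although their libraries did not overlap. It was called with quantile normalization (-1.07, limma adjusted p = 0.0357) and with only both groups compared (limma adjusted p = 0.0355), and the scaled difference, 0.25, had the other sign and was not called.

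The balance of both genes differed between the perfused and the unperfused mice. The Mt1 level divided by the Mt2 level was 0.530 and 0.588 after PFA perfusion, 0.761 and 0.591 after PBS perfusion, 2.08 and 1.69 without perfusion and 2.09 in both libraries after injury. Mt2 thus exceeded Mt1 in all 4 libraries of perfused Pax7-nGFP mice, and Mt1 exceeded Mt2 in all 4 libraries of unperfused wild-type mice, with no overlap. This ratio was examined after its values were seen and was not tested. Because both genes come from one library, it does not depend on how libraries are scaled. Reads of the 2 genes are separable over most of their length, since their GENCODE transcripts share no identical stretch of 50 bases and the longest identical run is 20 bases. Together both genes took 1.47% and 1.39% of summed FPKM in the PBS-perfused libraries, 0.0850% and 0.117% in the PFA-perfused ones, 0.411% and 0.163% without perfusion and 0.147% and 0.138% after injury. Among all genes Mt2 ranked 8 and 6 and Mt1 13 and 18 in the PBS-perfused libraries. The other metallothionein genes were near 0: Mt3 reached at most 1.17 FPKM, in an injury-activated library, Mt4 at most 0.0754, and neither passed the filter on low values.

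Mtf1 encodes the zinc sensor that drives metallothionein genes. It stood at 9.44 and 8.20 FPKM after PFA perfusion, 8.32 and 5.99 after PBS perfusion, 13.1 and 8.93 without perfusion and 10.6 and 9.61 after injury. The 8 values of Mtf1 ran from 5.99 to 13.1 FPKM. None of its 6 differences, from -0.28 to 0.55 with an SE of 0.24 each, was called in limma, where its smallest adjusted p was 0.0850, for unperfused against PBS-perfused cells with a 95% interval from 0.0074 to 1.10. Relative to the rescaled libraries Mtf1 was called higher in unperfused than in PFA-perfused cells (1.36) and than in PBS-perfused cells (1.08), and higher in injury-activated than in PBS-perfused (0.60) and PFA-perfused cells (0.88).

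**Figure D2:**
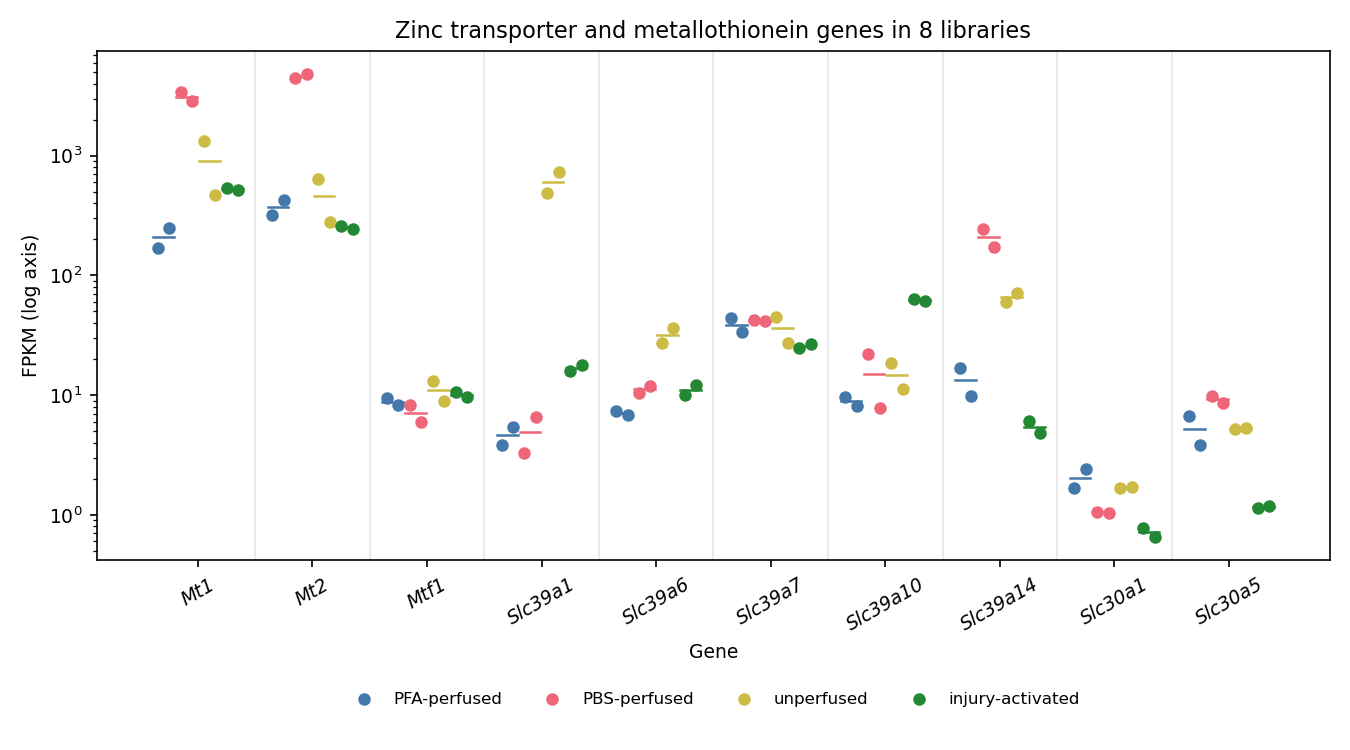
FPKM of the 10 genes (log axis) by gene, with 1 point per library coloured by group and a line at the mean of the 2 libraries of a group. The PBS-perfused libraries are the highest for Mt1, Mt2, Slc39a14 and Slc30a5, the unperfused ones for Slc39a1 and Slc39a6, and the injury-activated ones for Slc39a10.

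Slc39a1 encodes an importer of the plasma membrane that most cell types use. It was listed at 3.83 and 5.45 FPKM after PFA perfusion, 3.30 and 6.55 after PBS perfusion, 486 and 726 without perfusion and 16.0 and 17.7 after injury. Both unperfused libraries stood at least 27.4-fold above every library of the other groups, and the PFA-perfused and PBS-perfused values overlapped. The ratio of means was 130.5 between unperfused and PFA-perfused cells, with a log2 difference of 6.74 ± 0.31 (limma adjusted p = 7.6e-07), and 123.0 between unperfused and PBS-perfused cells, with a log2 difference of 6.71 ± 0.31 (limma adjusted p = 2.1e-06). The level fell by 5.06 ± 0.31 from unperfused to injury-activated cells (limma adjusted p = 1.9e-06), which were still higher than PBS-perfused cells by 1.65 ± 0.31 (limma adjusted p = 0.0012) and than PFA-perfused cells by 1.68 ± 0.31 (limma adjusted p = 0.0010). PBS-perfused and PFA-perfused cells differed by 0.03, with a 95% interval from -0.68 to 0.74. The gene ranked 137 and 80 among all genes in the unperfused libraries and between 3599 and 8900 in the others.

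The genes beside Slc39a1 did not share its level. In RefSeq on GRCm38.p6 it lies between Creb3l4, at 0.0380 to 0.628 FPKM over the 8 libraries, and Crtc2, at 4.27 to 19.8 FPKM, and overlaps neither. In the unperfused libraries Crtc2 stood at 6.34 and 4.60 FPKM, below its 2 PBS-perfused values of 17.5 and 19.8. Slc39a1 was 1 of 8 genes, a count taken after its values were seen, that had at least 10 FPKM in both unperfused libraries and at least 25 times the highest value of any other group. The others were Spry2, Frat1, Lrrc8a, Fxyd4, 4930562C15Rik, Mir3058 and Mir8095. By the same measure 68 genes stood apart in the injury-activated group, 3 in the PBS-perfused group and 1 in the PFA-perfused group.

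Slc39a14 encodes an importer of zinc, iron and manganese at the plasma membrane. Its levels were 17.0 and 9.83 FPKM after PFA perfusion, 245 and 174 after PBS perfusion, 59.8 and 71.5 without perfusion and 6.02 and 4.83 after injury. No 2 groups overlapped, and the order ran from PBS-perfused through unperfused and PFA-perfused to injury-activated. The group means were 13.4 ± 5.07 FPKM (SD, n = 2), 209 ± 50.1, 65.7 ± 8.28 and 5.43 ± 0.846 in the same order as the levels above. The gene was 15.6-fold higher in PBS-perfused than in PFA-perfused cells (log2 difference 3.89 ± 0.29, limma adjusted p = 2.1e-05) and 4.90-fold higher in unperfused than in PFA-perfused cells (2.25 ± 0.29, limma adjusted p = 1.0e-04). It fell by 1.64 ± 0.29 from PBS-perfused to unperfused cells (limma adjusted p = 0.0016), by 3.38 ± 0.29 from unperfused to injury-activated cells (limma adjusted p = 1.0e-05) and by 5.02 ± 0.29 from PBS-perfused to injury-activated cells (limma adjusted p = 1.2e-06). The last step of the order, injury-activated below PFA-perfused, at -1.13 ± 0.29 (limma adjusted p = 0.0065), was the least firm, since the call was lost without PFA-perfused replicate 1 (-0.76), without injury-activated replicate 2 (-0.99), with quantile normalization (-0.55) and as a scaled difference (-0.41).

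Slc39a10 and Slc39a6 encode related importers whose proteins are known to pair at the plasma membrane, and their transcripts peaked in different groups. Slc39a10 stood at 9.67 and 8.15 FPKM after PFA perfusion, 22.0 and 7.82 after PBS perfusion, 18.4 and 11.2 without perfusion and 63.7 and 60.7 after injury. Both injury-activated libraries were at least 2.76-fold above all others, and the 2 PBS-perfused libraries spanned the PFA-perfused and unperfused values. Slc39a10 was higher in injury-activated than in unperfused cells by 2.04 ± 0.41 (limma adjusted p = 0.0016), than in PBS-perfused cells by 2.15 ± 0.41 (limma adjusted p = 0.0011) and than in PFA-perfused cells by 2.68 ± 0.41 (limma adjusted p = 2.8e-04). Between uninjured groups none of its differences was called as deposited. As scaled differences, those of PBS-perfused (1.08) and unperfused (1.73) cells from PFA-perfused cells were, and so was that between PBS-perfused and PFA-perfused cells without PBS-perfused replicate 2 (1.22). The difference of 0.64 between unperfused and PFA-perfused cells was called when either PBS-perfused library was left out of the model.

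Slc39a6 stood at 7.32 and 6.75 FPKM after PFA perfusion, 10.4 and 12.0 after PBS perfusion, 27.3 and 36.3 without perfusion and 9.99 and 12.1 after injury. The unperfused libraries were the highest, the PFA-perfused ones the lowest, and the PBS-perfused and injury-activated values overlapped. It was higher in unperfused than in PFA-perfused cells by 2.02 ± 0.22 (limma adjusted p = 3.3e-05) and than in PBS-perfused cells by 1.42 ± 0.22 (limma adjusted p = 6.7e-04), and it fell by 1.44 ± 0.22 from unperfused to injury-activated cells (limma adjusted p = 2.8e-04). For the smaller differences from PFA-perfused cells, the call was lost when single libraries were left out, in part with no smaller difference. That of PBS-perfused cells, 0.60 ± 0.22 (limma adjusted p = 0.0363), was lost without PFA-perfused replicate 1 (0.65), PFA-perfused replicate 2 (0.55), PBS-perfused replicate 2 (0.50) or either injury-activated library (0.60). That of injury-activated cells, 0.58 ± 0.22 (limma adjusted p = 0.0361), was lost without PFA-perfused replicate 1 (0.63), PFA-perfused replicate 2 (0.53), injury-activated replicate 1 (0.70) or injury-activated replicate 2 (0.45).

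Slc39a7 encodes an importer of the endoplasmic reticulum and Golgi that releases stored zinc to the cytosol. It varied least among the importers, with 44.4 and 33.4 FPKM after PFA perfusion, 42.3 and 41.3 after PBS perfusion, 45.3 and 27.2 without perfusion and 24.6 and 26.7 after injury. The injury-activated values lay below all others, and the 3 uninjured groups overlapped. Among its 6 differences that between injury-activated and PBS-perfused cells was called, at -0.68 ± 0.27 (limma adjusted p = 0.0440). It was no longer called when any library of the PFA-perfused (-0.68), PBS-perfused (-0.67 and -0.70) or injury-activated group (-0.63 and -0.74) was left out. The difference of injury-activated from unperfused cells was -0.44 and not called as deposited (limma adjusted p = 0.174), and was called without unperfused replicate 2 (-0.80) and as a scaled difference (-0.84). The scaled differences of PBS-perfused (0.73) and unperfused (1.04) cells from PFA-perfused cells were also called, the second against a deposited value of -0.13.

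Slc30a1 was the least abundant of the 10 genes in all 8 libraries. It encodes the exporter of the plasma membrane and is one of the classical zinc-induced genes. It was listed at 1.68 and 2.39 FPKM after PFA perfusion, 1.06 and 1.04 after PBS perfusion, 1.69 in both libraries without perfusion and 0.781 and 0.651 after injury. The PBS-perfused libraries, which held the most Mt1 and Mt2, were below both the PFA-perfused and the unperfused ones for Slc30a1. Slc30a1 was lower in PBS-perfused than in PFA-perfused cells, at -0.56 ± 0.16 (limma adjusted p = 0.0152), a call lost without PFA-perfused replicate 2 (-0.39) and as a scaled difference (-0.17). It was lower in injury-activated cells than in unperfused cells, at -0.65 ± 0.16 (limma adjusted p = 0.0061), a call lost without injury-activated replicate 2 (-0.59). It was also lower in injury-activated than in PFA-perfused cells, at -0.81 ± 0.16 (limma adjusted p = 0.0016), a call lost as a scaled difference (-0.35) and with quantile normalization, which turned the sign (0.062). At levels near the pseudocount of 1 these log2 differences understate the ratio of means, which was 0.515, 0.424 and 0.352 for the 3 comparisons. As scaled differences Slc30a1 was called higher in unperfused than in PFA-perfused (0.60, against -0.17 as deposited) and PBS-perfused cells (0.77, against 0.39 as deposited).

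Slc30a5 encodes an exporter that loads zinc into the early secretory pathway together with the product of Slc30a6. Its levels were 6.65 and 3.80 FPKM after PFA perfusion, 9.84 and 8.54 after PBS perfusion, 5.17 and 5.30 without perfusion and 1.14 and 1.18 after injury. The injury-activated libraries were the lowest and the PBS-perfused ones the highest, while the unperfused values fell between the 2 PFA-perfused ones. Slc30a5 fell by 1.53 ± 0.24 from unperfused to injury-activated cells (limma adjusted p = 3.4e-04), by 2.24 ± 0.24 from PBS-perfused to injury-activated cells (limma adjusted p = 3.2e-05) and by 1.49 ± 0.24 from PFA-perfused to injury-activated cells (limma adjusted p = 3.8e-04), the last not called with quantile normalization (-0.56). Its differences among uninjured groups were smaller. Their calls were lost when single libraries were left out, in part with no smaller difference. The higher level in PBS-perfused than in PFA-perfused cells, 0.75 ± 0.24 (limma adjusted p = 0.0213), was not called without PFA-perfused replicate 2 (0.41) or PBS-perfused replicate 1 (0.65). The lower level in unperfused than in PBS-perfused cells, -0.71 ± 0.24 (limma adjusted p = 0.0343), was not called without PBS-perfused replicate 1 (-0.61) or 2 (-0.80), unperfused replicate 1 (-0.69) or 2 (-0.72), or either injury-activated library (-0.71), nor as a scaled difference (-0.21). Between unperfused and PFA-perfused cells the deposited difference was 0.04 and the scaled one, which was called, 1.04.

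**Figure D3:**
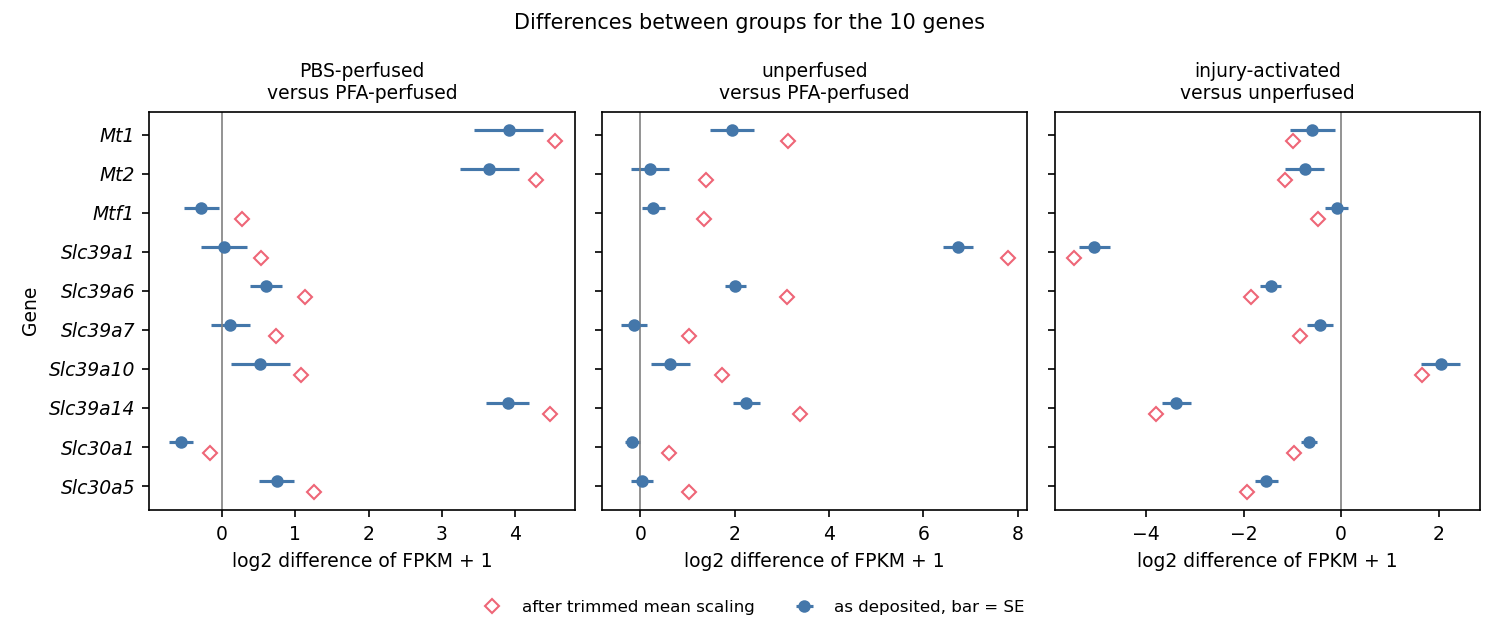
Log2 differences of FPKM + 1 for the 10 genes in 3 comparisons, as deposited (filled circles, bars give the SE) and after rescaling of the libraries by a trimmed mean of ratios (open diamonds). Mt1, Mt2 and Slc39a14 have the highest values between PBS-perfused and PFA-perfused cells, from 3.65 to 3.91, and the rescaled values lie to the right of the deposited ones in both comparisons with PFA-perfused cells.

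Counted over the 10 genes, PBS perfusion against PFA perfusion gave 5 genes called higher, Mt1, Mt2, Slc39a14, Slc39a6 and Slc30a5, and 1 called lower, Slc30a1. Of all tested genes 17.8% were called higher and 46.2% lower in that comparison, so genes called higher were a minority there. The median difference of the 10 genes was 0.56, beside -0.50 for all tested genes. As scaled differences 7 of the 10 were called higher and 0 lower, against 28.9% and 25.6% of all tested genes. With each library left out in turn, 3 to 5 of the 10 were called higher and 0 or 1 lower; without PFA-perfused replicate 2 the counts were 3 and 0.

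Unperfused against PFA-perfused cells gave 4 genes called higher, Slc39a1, Slc39a14, Slc39a6 and Mt1, and 0 called lower in limma (0 at an unadjusted p under 0.05), against 17.4% of all tested genes called higher and 56.3% lower. As scaled differences all 10 genes were called higher and 0 lower, while 36% and 31.9% of all tested genes were called higher and lower. The median of the 10 was 0.46 as deposited and 1.57 scaled, beside -0.81 and 0.05 for all tested genes. The 6 genes called by scaling alone had deposited differences between -0.17 and 0.64, so whether they count as higher depends on the scale. Unperfused against PBS-perfused cells gave 2 genes called higher, Slc39a1 and Slc39a6, and 4 lower, Mt1, Mt2, Slc39a14 and Slc30a5, against 13.1% and 36.5% of all tested genes. As scaled differences 4 were called higher and 3 lower, against 24.5% and 22.9%.

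Injury-activated against unperfused cells gave 1 gene called higher, Slc39a10, and 5 lower, Slc39a1, Slc39a14, Slc39a6, Slc30a5 and Slc30a1, where 40.8% of all tested genes were called higher and 29.3% lower. The median of the 10 genes was -0.70, beside 0.17 for all tested genes. As scaled differences 1 was called higher and 8 lower, against 36.2% and 36.8%, and 8 were also called lower without unperfused replicate 2. Against PBS-perfused cells 2 genes, Slc39a1 and Slc39a10, were called higher and 5, Mt1, Mt2, Slc39a14, Slc39a7 and Slc30a5, lower in injury-activated cells, against 34.4% and 38.8% of all tested genes, and as scaled differences 3 and 5, against 38.1% and 37%. Against PFA-perfused cells 4 genes, Mt1, Slc39a1, Slc39a6 and Slc39a10, were called higher and 3, Slc39a14, Slc30a1 and Slc30a5, lower, against 26.1% and 47.3% of all tested genes. Scaled counts for that comparison were 5 and 1, against 39.7% and 33.1%. It kept 2 to 4 of its 4 higher genes in number when each library was left out, with 2 without PFA-perfused replicate 1 or either injury-activated library, and 2 to 4 lower. Comparisons that share a group share its 2 libraries, so their counts are not independent.

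The set of importers that made up the summed Slc39a level changed from group to group. The 14 Slc39a genes summed to 160 and 128 FPKM after PFA perfusion, 354 and 273 after PBS perfusion, 672 and 898 without perfusion and 179 and 180.0 after injury. A different gene led in each group, and the same one led in both libraries of a group. Slc39a7 took 27.8% and 26.0% of the sum after PFA perfusion, Slc39a14 69.2% and 63.8% after PBS perfusion, Slc39a1 72.2% and 80.8% without perfusion and Slc39a10 35.7% and 33.7% after injury. Without its leading gene the sum ran from 95.1 to 187 FPKM over the 8 libraries. The 10 Slc30a genes summed to between 39.4 and 90.6 FPKM, and Slc30a9, which encodes a mitochondrial zinc exporter, led in 5 libraries, Slc30a6 in both injury-activated ones and Slc30a7 in unperfused replicate 1.

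**Figure D4:**
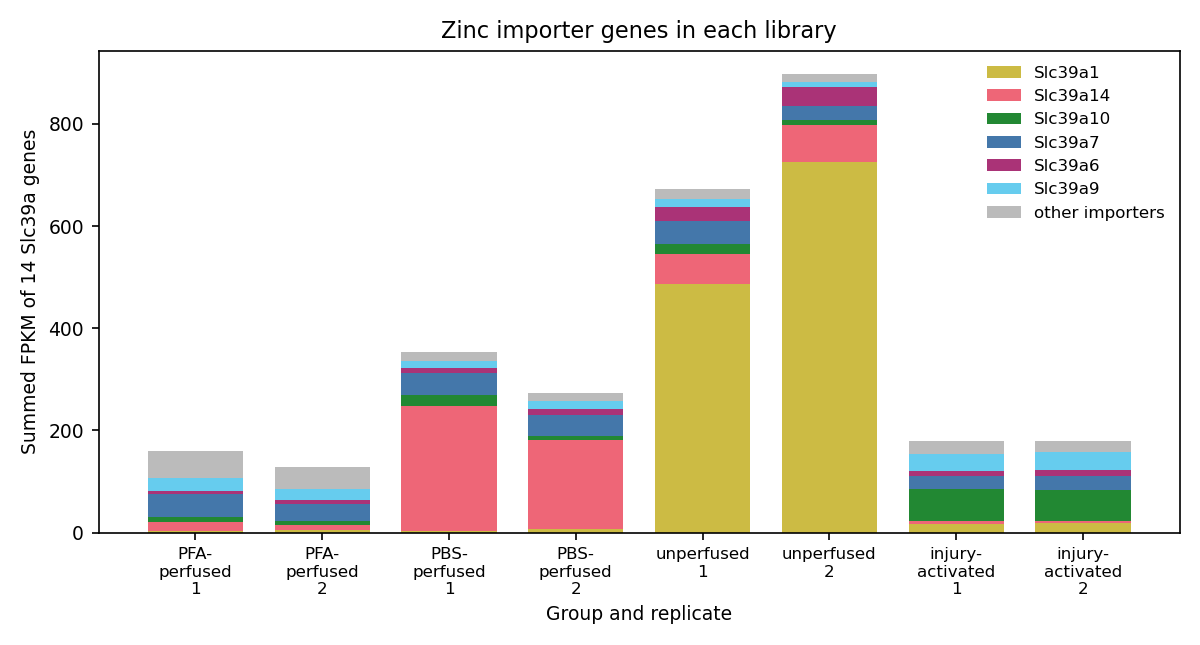
Summed FPKM of the 14 Slc39a genes in each of the 8 libraries, on a linear axis that starts at 0, with coloured segments for 6 genes and grey for the rest. Slc39a14 fills most of the bar in the PBS-perfused libraries (69.2% and 63.8%) and Slc39a1 most of it in the unperfused ones (72.2% and 80.8%).

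Of the other 9 importer genes 5 were tested, and of the other 8 exporter genes 4. Their counts stand beside shares of all tested genes called higher and lower of 17.8% and 46.2% between PBS-perfused and PFA-perfused cells, 17.4% and 56.3% between unperfused and PFA-perfused, 13.1% and 36.5% between unperfused and PBS-perfused, 40.8% and 29.3% between injury-activated and unperfused, 34.4% and 38.8% between injury-activated and PBS-perfused and 26.1% and 47.3% between injury-activated and PFA-perfused. As scaled differences these shares were, in the same order, 28.9% and 25.6%, 36% and 31.9%, 24.5% and 22.9%, 36.2% and 36.8%, 38.1% and 37%, and 39.7% and 33.1%. PBS-perfused against PFA-perfused cells gave 1 of the 5 importers called higher, Slc39a8 (0.93 ± 0.21), the closest relative of Slc39a14, and 3 lower, Slc39a13 (-2.14 ± 0.23), Slc39a3 (-1.80 ± 0.22) and Slc39a9 (-0.62 ± 0.23). Slc39a8 stood at 1.77 and 1.02 FPKM in the PBS-perfused libraries and at most 0.490 in the others. It passed the filter through that group alone, so its calls against that group add no support. Slc39a9 had a scaled difference of -0.01, which was not called, and its deposited call was lost when any PFA-perfused, PBS-perfused or injury-activated library was left out (-0.54 to -0.70). Unperfused against PFA-perfused cells gave 0 higher and 3 lower in limma, Slc39a3 (-1.64 ± 0.22), Slc39a13 (-1.52 ± 0.23) and Slc39a9 (-0.74 ± 0.23), and of these Slc39a3 was also called lower as a scaled difference (-0.60). Slc39a9 was not called there without PFA-perfused replicate 1 (-0.66) or unperfused replicate 2 (-0.45). Injury-activated against unperfused cells gave 2 higher, Slc39a9 (1.32 ± 0.23) and Slc39a13 (0.97 ± 0.23), and 1 lower, Slc39a3 (-1.42 ± 0.22). Unperfused against PBS-perfused cells gave 0 higher and 1 lower in limma, Slc39a8 (-0.96 ± 0.21), and as scaled differences also 1 higher, Slc39a13 (1.13). Injury-activated against PBS-perfused cells gave 2 higher and 2 lower, and against PFA-perfused cells 1 and 1, where Slc39a3 fell by 3.06 ± 0.22. The 1 higher there was Slc39a9 (0.58), a call lost without either PFA-perfused or injury-activated library (0.49 to 0.66) or without PBS-perfused replicate 1 (0.58).

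Among the 4 exporters 1 was called higher and 1 lower between PBS-perfused and PFA-perfused cells, Slc30a4 (2.24 ± 0.60), an exporter of endosomes, and Slc30a6 (-0.83 ± 0.21), whose scaled difference of -0.24 was not called. Slc30a4 stood at 0.662 and 7.93 FPKM in the PFA-perfused libraries, and its difference was 1.03 without PFA-perfused replicate 1 and 3.46 without PFA-perfused replicate 2, called in both. Between unperfused and PFA-perfused cells 1 was higher, Slc30a4 (1.68 ± 0.60), and 2 lower, Slc30a6 (-1.84 ± 0.21) and Slc30a9 (-1.29 ± 0.20), the latter not called as a scaled difference (-0.15). Slc30a4 was not called there without PFA-perfused replicate 1 (0.46), either PBS-perfused library (1.68) or either unperfused library (1.53 and 1.83), and was 2.89 without PFA-perfused replicate 2. Scaled counts were 2 higher and 0 lower in the first of these comparisons and 2 higher and 1 lower in the second. Between unperfused and PBS-perfused cells 3 were lower, Slc30a9 (-1.09 ± 0.20), Slc30a6 (-1.01 ± 0.21) and Slc30a7 (-0.89 ± 0.27). Slc30a7 was not called there as a scaled difference (-0.36), without PBS-perfused replicate 1 (-0.62) or without unperfused replicate 2 (-0.58). Injury-activated cells stood above unperfused cells for Slc30a6 (2.22 ± 0.21) and below them for Slc30a9 (-1.51 ± 0.20). Slc30a6 thus stood higher in injury-activated than in unperfused cells, a comparison in which its partner Slc30a5 fell by 1.53. The means of Slc30a6 were 13.9 FPKM after PFA perfusion, 7.42 after PBS perfusion, 3.22 without perfusion and 18.4 after injury. Its difference between injury-activated and PFA-perfused cells was not called as deposited. The remaining comparisons of injury-activated cells gave 1 higher and 1 lower each, with Slc30a9 falling by 2.60 ± 0.20 from PBS-perfused and by 2.80 ± 0.20 from PFA-perfused cells. Against PFA-perfused cells the scaled counts were 3 higher and 1 lower. The 1 higher as deposited was Slc30a4 (1.53), which stayed called without PFA-perfused replicate 2 (2.74) and was not called when any other library was left out, with 0.32 without PFA-perfused replicate 1.

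Genes of 3 signalling responses that are known to act on metallothioneins or Slc39a14 were read alongside. For these lists too, the shares of all tested genes called higher and lower were 17.8% and 46.2% between PBS-perfused and PFA-perfused cells, 17.4% and 56.3% between unperfused and PFA-perfused, 13.1% and 36.5% between unperfused and PBS-perfused, and 40.8% and 29.3%, 34.4% and 38.8%, and 26.1% and 47.3% for injury-activated cells against unperfused, PBS-perfused and PFA-perfused ones. Scaled counts stand beside other shares. In the same order these were 28.9% and 25.6%, 36% and 31.9%, 24.5% and 22.9%, 36.2% and 36.8%, 38.1% and 37%, and 39.7% and 33.1%. Of 10 genes of the interleukin 6 and Stat3 response, 10 were called higher and 0 lower in PBS-perfused than in PFA-perfused cells, with a median of 3.16 beside -0.50 for all tested genes. Il6ra, at 2.27 and 3.99 FPKM in the PBS-perfused libraries and at most 0.558 elsewhere, passed the filter through that group alone. Its calls against that group therefore add no support. The kinase gene Pim1 (4.45 ± 0.33), the cytokine gene Il6 (4.31 ± 0.40) and the receptor gene Osmr (4.22 ± 0.34) had the largest values, and Stat3 itself rose by 3.48 ± 0.28. Unperfused against PFA-perfused cells gave 7 higher and 1 lower (8 and 1 as scaled differences), with a median of 1.70, and the 1 lower was Cebpd (-3.73 ± 0.26). Unperfused against PBS-perfused cells gave 1 higher, Pim1 (1.35 ± 0.33), and 6 lower, led by Cebpd (-6.79 ± 0.26). Pim1 was not called there without PBS-perfused replicate 1 (1.03) or unperfused replicate 2 (0.94). Injury-activated cells had 0 higher and 8 lower than unperfused cells in limma (8 became 9 as scaled differences), 0 higher and 10 lower than PBS-perfused cells on both scales, and 1 higher, Lif (0.60 ± 0.17), and 3 lower than PFA-perfused cells. In the last comparison scaled counts were 2 higher and 1 lower, with Stat3 (-1.36 deposited, -0.60 scaled) and Bcl3 (-1.36 and -0.78) no longer called, and the median went from -0.10 to 0.29. The call of Lif there was lost without injury-activated replicate 1 (0.61) or 2 (0.58), and that of Bcl3 without injury-activated replicate 1 (-1.36) or 2 (-1.36) or PFA-perfused replicate 1 (-1.03). Lif stood below the pseudocount of 1 in both groups, from 0.931 to 0.978 FPKM after injury and from 0.267 to 0.320 after PFA perfusion.

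Of 9 oxidative stress genes 7 were called higher and 1 lower in PBS-perfused than in PFA-perfused cells, with a median of 2.74. The heme oxygenase gene Hmox1 (6.99 ± 0.82), the sulfiredoxin gene Srxn1 (5.02 ± 0.26) and the thioredoxin reductase gene Txnrd1 (4.36 ± 0.27) led them, and Keap1, whose product restrains the response, was the 1 lower (-2.05 ± 0.23). The PBS-perfused libraries lay far apart for Hmox1, at 344 and 2242 FPKM. Its difference between injury-activated and PBS-perfused cells, -2.91, was -1.56 without PBS-perfused replicate 2. Unperfused against PFA-perfused cells gave 6 higher and 1 lower (7 and 1 as scaled differences), with a median of 1.89. Unperfused against PBS-perfused cells gave 1 higher and 3 lower (1 and 2 scaled), and injury-activated against unperfused cells 2 higher and 5 lower (1 and 5 scaled) with a median of -1.57, led by Srxn1 (-4.21 ± 0.26) and Gclm (-3.81 ± 0.26). Injury-activated cells had 1 higher and 6 lower than PBS-perfused cells (2 and 6 scaled) and 3 higher and 2 lower than PFA-perfused cells (6 and 2 scaled).

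Of 10 glucocorticoid response genes 4 were called higher and 3 lower in PBS-perfused than in PFA-perfused cells, with a median of 0.15. Errfi1 (3.76 ± 0.47), Dusp1 (3.57 ± 0.42) and Sgk1 (2.62 ± 0.34) rose, while Tsc22d3 (-0.71 ± 0.27), a classical glucocorticoid target, and Sesn1 (-2.00 ± 0.24) fell as deposited. The scaled difference of Tsc22d3 was -0.08 and not called, and its deposited call was lost without PFA-perfused replicate 1 (-0.47), PBS-perfused replicate 2 (-0.49) or either injury-activated library (-0.71). Scaled counts of that comparison were 5 higher and 1 lower. Unperfused cells had 2 higher and 5 lower than PFA-perfused cells (4 and 3 as scaled differences, with a median of -0.59 as deposited and 0.57 scaled) and 0 higher and 6 lower than PBS-perfused cells in limma (1 and 4 as scaled differences). Injury-activated cells had 1 higher, Tsc22d3 (2.34 ± 0.27), and 7 lower than unperfused cells, 0 higher and 8 lower than PBS-perfused cells (1 and 8 as scaled differences) and 1 higher and 7 lower than PFA-perfused cells. Each count of 0 in these lists and in those of the other transporters was also 0 at an unadjusted p under 0.05, except that 1 importer was then higher in unperfused than in PBS-perfused cells. With each library left out in turn, a choice made after the data were seen, counts of 4 or more in these 5 lists stayed within 1.5 times their value. Smaller counts moved by at most 1, except that the 3 oxidative stress genes lower in unperfused than in PBS-perfused cells became 5 without PBS-perfused replicate 1. No list was tested as a set.

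**Figure D5:**
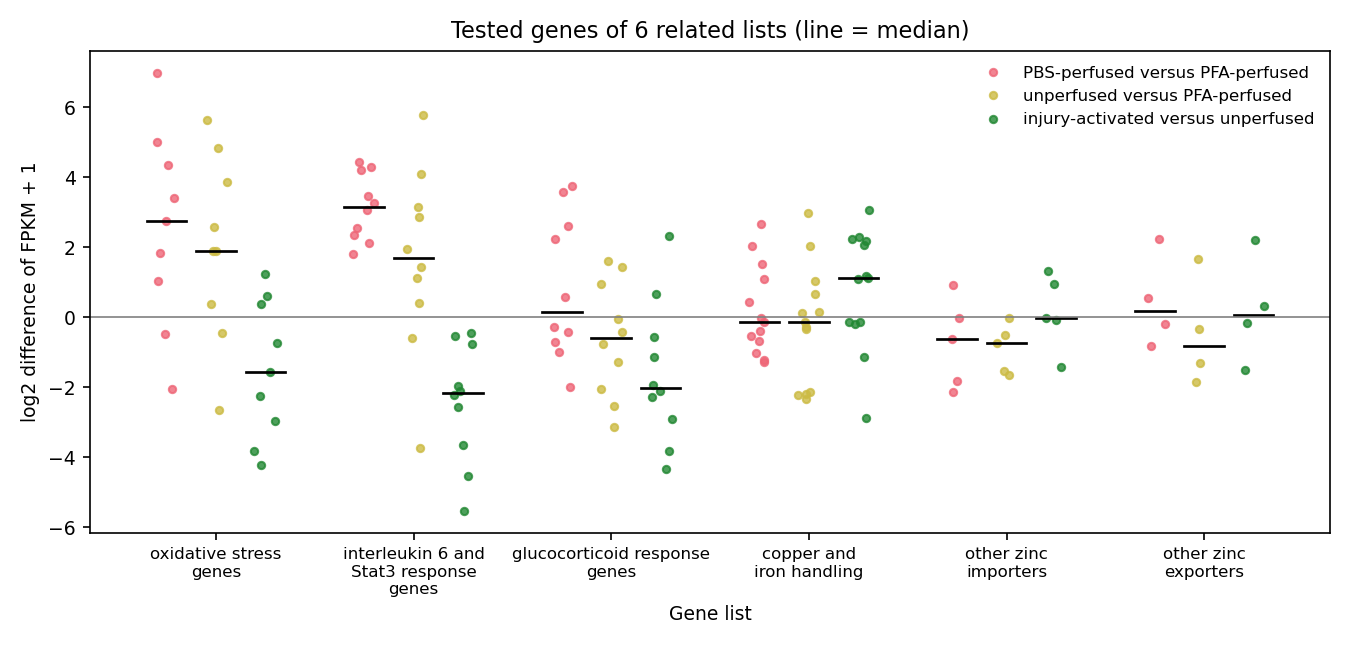
Log2 differences of FPKM + 1 for the tested genes of 6 lists (1 point per gene, black line at the median of the list) in 3 comparisons marked by colour. All 10 genes of the interleukin 6 and Stat3 list lie above 0 between PBS-perfused and PFA-perfused cells (median 3.16), and the median of the list is -2.16 between injury-activated and unperfused cells. Il6ra passed the filter through the PBS-perfused libraries alone.

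For Mt1, Mt2, Slc39a14 and Slc30a1 the genes of most similar pattern were found by Pearson r of log2(FPKM + 1) over the 8 libraries, as a description of points that share group and library scale. For Mt1 the nearest were Utp3 (0.993), Cd82 (0.987) and Eif4ebp1 (0.978), and for Mt2 they were Gpr4 (0.988), Gm6225 (0.985) and Slc1a5 (0.985). For Slc39a14 the nearest were Mcl1 (0.994), Tiparp (0.992) and Gbp3 (0.990). For Slc30a1 they were Pisd-ps3 (0.978), Acrbp (0.978) and Fam117a (0.972). After rescaling, r was 0.879 to 0.964 for the 3 genes nearest Mt1, 0.963 to 0.991 for those nearest Mt2, 0.976 to 0.996 for those nearest Slc39a14 and 0.835 to 0.931 for those nearest Slc30a1. Neither metallothionein gene was among the 3 nearest genes of the other.

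Markers of other cell types differed between groups. The summed level of 8 endothelial markers was 60.5 to 62.4 FPKM after PFA perfusion, 134 to 213 after PBS perfusion, 25.4 to 39.7 without perfusion and 7.72 to 8.44 after injury, and 7 of the 8 were called higher in PBS-perfused than in PFA-perfused cells. Of all tested genes 17.8% were called higher and 46.2% lower in that comparison. Cdh5 and Kdr reached 1 FPKM in the PBS-perfused libraries alone, and Emcn outside them only in 1 PFA-perfused library (1.38 FPKM). These genes entered the tests through the group where they were called higher. Tek, the 1 not called, held most of the PFA-perfused sum, with means of 48.7 FPKM after PFA and 47.9 after PBS perfusion. The mean of Cldn5 rose from 2.97 to 59.9 FPKM and that of Pecam1 from 2.19 to 26.8. The 8 myeloid markers summed to 7.05 to 7.26, 41.6 to 44.1, 26.7 to 37.8 and 64.1 to 71.5 FPKM in the same order of groups, with Itgam at 0 in both PFA-perfused libraries and Adgre1 at 0 in both unperfused ones. Cd68 held most of the unperfused sum, with a mean of 27.5 FPKM beside 0.355 for Lyz2. The 8 myofibre genes summed to 56.2 to 79.9, 38.3 to 58.6, 33.9 to 36.7 and 184 to 227 FPKM, so both myeloid and myofibre sums were highest in the injury-activated libraries, as Slc39a10 was. Fibro-adipogenic markers summed to 504 to 886, 303 to 449, 638 to 755 and 75.8 to 85.5 FPKM and mural markers to 526 to 580, 176 to 232, 121 to 130 and 45.4 to 55.6. By count, 5 of the 7 tested fibro-adipogenic markers were called higher and 1 lower between PBS-perfused and PFA-perfused cells (median 2.24) and 5 higher and 2 lower between injury-activated and unperfused cells (median 2.11), the reverse of the sums, in which Dpt had a mean of 476, 165, 465 and 5.71 FPKM and Col3a1 of 211, 128, 223 and 20.1. The shares of all tested genes called higher and lower were 17.8% and 46.2% in the first of these comparisons and 40.8% and 29.3% in the second. The part of other cell types in the differences of the zinc genes was not tested. In bulk libraries fewer cells of a type and less RNA per cell cannot be told apart.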

How the data were processed

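RNA of sorted mouse satellite cells was measured in 8 libraries, 2 for each of 4 groups taken from the labels. The authors deposited 1 table of 24328 genes, and its values are read as FPKM, with no unit in the file header. STAR 2.5.3a, StringTie 1.3.3, R 3.4.1 and genome build mm9 are named without roles per the submitters' processing notes. Read depth is not known, so no counting error is given. The 10 genes and all gene lists were chosen with earlier results of these data known.

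Values were transformed to log2(FPKM + 1). Genes with at least 1 FPKM in at least 2 libraries (12515) entered 1 model of all 8 libraries in limma 3.58.1 (R 4.3.3, trended empirical Bayes, 4 residual degrees of freedom). The 6 comparisons were tested two-sided with Benjamini-Hochberg adjustment over all tested genes, and an adjusted p below 0.05 was called higher or lower. The procedure was tested on simulated data with independent noise, few changed genes, balanced directions and no shift in the general level. These data differ in the number of changed genes and in the general level, so that test does not show how reliable the calls are here. Alternatives were a replicate block, only both groups compared, no filter, a filter at 5 FPKM, a pseudocount of 0.1, a trimmed mean of ratios (0.3 of ratios and 0.05 of levels trimmed), quantile normalization and each library left out. From each list up to 3 called genes per comparison were to be named, by size of change. Promoter windows came from RefSeq on GRCm38.p6, matched by symbol, and coordinates of the authors' build were not used.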

Additional observations from a re-analysis of the deposited data

How the results depend on the processing

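Most calls on single genes kept their direction and side of the threshold. Across the 60 differences of the 10 genes, 59 were unchanged with a replicate block, 54 with only the libraries of both groups compared, 56 without the filter and 60 with a pseudocount of 0.1, and all 54 that could be computed at 5 FPKM were unchanged (Slc30a1 was not tested there). The trimmed mean left 36 of 60 unchanged and quantile normalization 38. The replicate block called 3 of the 10 genes higher between unperfused and PBS-perfused cells in place of 2, by adding Mtf1 (0.55, limma adjusted p = 0.0438). Small calls were also lost with only both groups compared, for Slc39a6 (limma adjusted p = 0.0650), Slc30a1 (0.0537) and Slc30a5 (0.0710) between PBS-perfused and PFA-perfused cells and Slc30a5 (0.0829) between unperfused and PBS-perfused cells, and without the filter, for Slc30a5 in the same comparisons (0.0529 and 0.0776), Slc39a7 (0.0807) between injury-activated and PBS-perfused cells and Mt1 (0.0896) between injury-activated and PFA-perfused cells. Labels give the replicates only a number, and deviations of libraries with the same number correlated at -0.05 to 0.12, so the number was not taken as a pairing.

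Counts moved as follows, and the cause was not tested. Between PBS-perfused and PFA-perfused cells, 3 were called higher with only both groups and 3 to 5 with a library left out, and 0 lower with only both groups, at 5 FPKM (where Slc30a1 drops out), with the trimmed mean and with quantile normalization, and 0 to 1 with a library left out. Between unperfused and PFA-perfused cells 10 were higher with the trimmed mean and 8 with quantile normalization. Between unperfused and PBS-perfused cells 4 were higher with either scaling and 2 to 3 with a library left out. Between injury-activated and unperfused cells 8 were lower with the trimmed mean and 4 to 8 with a library left out. Between injury-activated and PFA-perfused cells 2 to 4 were higher with a library left out, and 5 were lower with only both groups, 1 with the trimmed mean and 2 to 4 with a library left out.

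Differences that changed sign were all uncalled as deposited, except that of Slc30a1 between injury-activated and PFA-perfused cells, 0.062 with quantile normalization. With the trimmed mean the others were Mtf1 (0.28) between PBS-perfused and PFA-perfused cells, Slc39a7 (1.04) and Slc30a1 (0.60) between unperfused and PFA-perfused, Slc39a7 (0.31) between unperfused and PBS-perfused, Slc39a6 (0.13) between injury-activated and PBS-perfused, and Mt2 (0.25) and Slc39a7 (0.20) between injury-activated and PFA-perfused. With quantile normalization they were Mtf1 (0.24) between PBS-perfused and PFA-perfused, Slc39a7 (0.25) and Slc30a1 (0.77) between unperfused and PFA-perfused, and Slc30a1 (0.17) between injury-activated and PBS-perfused. With a library left out, ranges that crossed 0 between PBS-perfused and PFA-perfused cells were -0.38 to 0.43 for Slc39a1, -0.085 to 0.32 for Slc39a7 and -0.16 to 1.22 for Slc39a10. Between unperfused and PFA-perfused cells they were -0.40 to 0.80 for Mt2, -0.49 to 0.23 for Slc39a7, -0.33 to 0.0045 for Slc30a1 and -0.30 to 0.38 for Slc30a5. Between unperfused and PBS-perfused cells they were -0.60 to 0.11 for Slc39a7 and -0.58 to 0.80 for Slc39a10. Between injury-activated and unperfused cells they were -1.34 to 0.16 for Mt1 and -0.35 to 0.16 for Mtf1, and between injury-activated and PBS-perfused cells -0.14 to 0.10 for Slc39a6. Leaving out a library leaves 1 in its group, whose spread is then assumed to be that of the other groups.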

Other observations

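Genes of copper and iron handling, the metals that metallothioneins and Slc39a14 also meet, were read in the same comparisons. Of 14 such genes 13 were tested. Injury-activated cells had 8 called higher and 2 lower than unperfused cells in limma, where 40.8% and 29.3% of all tested genes were called so, with a median of 1.14 beside 0.17 for all tested genes. The transferrin receptor gene Tfrc (3.06 ± 0.30), the copper chaperone gene Atox1 (2.29 ± 0.30) and the iron-sensing aconitase gene Aco1 (2.25 ± 0.30) rose most, and the transferrin gene Trf (-2.88 ± 0.35) and the iron exporter gene Slc40a1 (-1.13 ± 0.27) fell. The mean of Atox1 after injury, 25.3 FPKM, was not above its PFA-perfused mean of 26.0 FPKM. In PBS-perfused against PFA-perfused cells 4 were called higher, among them the copper importer gene Slc31a1 (2.68 ± 0.36), the ferritin light chain gene Ftl1 (2.04 ± 0.35) and the iron importer gene Slc11a2 (1.51 ± 0.27), and 3 lower, Slc31a2 (-1.28 ± 0.17), Atox1 (-1.22 ± 0.30) and Ccs (-1.03 ± 0.26). Of all tested genes 17.8% were higher and 46.2% lower there. As scaled differences 5 were called higher and 1 lower, and Atox1 (-0.61) and Ccs (-0.41) were not called, nor was Ccs as deposited without PFA-perfused replicate 1 (-0.82). Unperfused cells had 3 higher, Slc31a1 (2.97 ± 0.36), Slc11a2 (2.04 ± 0.27) and Tfrc (1.05 ± 0.30), and 4 lower than PFA-perfused cells (9 and 4 as scaled differences, 17.4% and 56.3% of all tested genes as deposited), and 0 higher and 5 lower than PBS-perfused cells (4 and 4 as scaled differences, 13.1% and 36.5% of all tested genes as deposited). The call of Tfrc was lost without PFA-perfused replicate 1 (0.83) or unperfused replicate 1 (0.66), and the count of 0 was 2 without PBS-perfused replicate 1 and 1 without unperfused replicate 2. Injury-activated cells had 4 higher and 2 lower than PBS-perfused cells (34.4% and 38.8% of all tested genes), with 1 lower without PBS-perfused replicate 1 or injury-activated replicate 2, and 6 higher and 4 lower than PFA-perfused cells (8 and 1 as scaled differences, 26.1% and 47.3% of all tested genes as deposited). As scaled differences, 28.9% of all tested genes were called higher and 25.6% lower between PBS-perfused and PFA-perfused cells. The scaled shares were 36% and 31.9% between unperfused and PFA-perfused cells and 24.5% and 22.9% between unperfused and PBS-perfused cells. Between injury-activated and PFA-perfused cells they were 39.7% and 33.1%.

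Nup93, a nuclear pore gene downstream of Mt1 on the same chromosome, stood at 124 and 136 FPKM in the injury-activated libraries and at 7.89 to 24.9 in the others, unlike either metallothionein gene.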
